A study of Mus musculus with 24 samples.

Results

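Genes of the first steps of the secretory pathway were followed: those that carry new proteins into the endoplasmic reticulum (ER) and those that move them between the ER and the Golgi apparatus. They were taken by gene symbol from the table that assigns the array's probe sets to genes, with no use of measured values. The pattern took families such as Sec61, Srp, Ssr, Sec23, Sec24, Cop, Arf, Tmed, Lman, Kdelr, Stx, Gosr, Trappc and Golga. It found 80 symbols among the 8949 genes named in the table. Of these, 77 had a probe set assigned to 1 gene, among 8251 such genes in all. Tmed2, Tmed10 and Sec61g lay only in probe sets shared by several genes and were not used. Of the 77, 73 passed a filter on low signal that 5691 genes passed, and Arf2, Sec24b, Ssr4 and Tmed8 did not. Their group means lay between 13.1 and 18.8 for Arf2, 15.7 and 24.9 for Sec24b, 1.15 and 4.42 for Ssr4, and 3.50 and 10.7 for Tmed8, against a limit of 27.7. The 73 divide into 19 genes of targeting, translocation and signal peptide cleavage, 7 of the COPII coat, 13 of the COPI coat and its ARF GTPases, 9 cargo receptors, 14 SNAREs and 11 tethers and golgins. Counts and medians below concern the 73.

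A secretory protein is recognised during its synthesis by the signal recognition particle, brought to the ER by the particle's receptor, threaded through the Sec61 channel and freed of its signal peptide by signal peptidase. COPII-coated vesicles then carry it from the ER towards the Golgi, COPI-coated vesicles return escaped ER residents and receptors, and tethers and SNAREs dock and fuse the vesicles. Many of these genes are known targets of the unfolded protein response, through the transcription factors XBP1 and ATF6, which answer a build-up of unfolded protein in the ER. In fibroblasts, which secrete large amounts of collagen, the route is heavily used.

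RNA came from primary mouse embryonic fibroblasts, described as passage 3 in the labels of 3 of the 4 untreated wild type arrays. The 6 groups were wild type and CHOP-/- cells, each left untreated or given tunicamycin (2 µg/ml) for 4 h or 8 h. This drug, which stops N-linked glycosylation, causes ER stress, and CHOP, the product of Ddit3, is a transcription factor made in that stress. The comparisons ask which genes tunicamycin changed and whether CHOP loss altered this. Each group held 4 arrays, lettered A to D, 24 in all. The labels give the untreated cells no time and name no solvent group, so effects of tunicamycin, time and handling cannot be told apart. Nor do they tie the arrays within a group to distinct cultures, and the p-values therefore measure the spread between arrays, which may be technical.

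The Ddit3 signal in wild type cells was 299.6 ± 97.4 (SD, n = 4) without tunicamycin, 3652 ± 722 at 4 h and 4383 ± 524 at 8 h, and group means were 14.7 to 31.6 in CHOP-/- cells. The ER chaperones Hspa5 and Hsp90b1, standard markers of ER stress, had log2 changes at 8 h of 0.74 and 1.10 in wild type and 0.74 and 1.05 in CHOP-/- cells, all called by the test below. Of 13 fibroblast markers 12 passed the filter. Their summed signal was 23778 to 38325 per array, while Vim was low, with group means of 18.3 to 26.3. The 7 leukocyte markers summed to 461 to 3627 in wild type and 418 to 1388 in CHOP-/- arrays. In wild type cells this sum followed the array letter: array B held 3627, 3367 and 3176 at the 3 times, array A 2002, 2059 and 1929, and arrays C and D 461 to 817. Among single leukocyte markers, Lyz2 read 1551, 1563 and 1332 on wild type array B and 652, 826 and 634 on array A. It read 76.7 to 167.7 on wild type arrays C and D and 32.7 to 278.3 on CHOP-/- arrays. Ptprc stayed between 0.7 and 32.9 and was highest on wild type array B at each time. Group means of all 7 leukocyte markers were higher in wild type than in CHOP-/- cells at each time. Endothelial markers summed to at most 68.0 and epithelial ones to at most 253.8. Muscle markers summed to 1267 to 2424, mostly from Actc1, and neural markers to 1730 to 3290.1, mostly from Tubb3 and Nes. At 8 h against untreated, 3 fibroblast markers were called lower in wild type, Col3a1 (log2 -0.71), Pdgfrb (-0.74) and S100a4 (-1.04), and 2 in CHOP-/- cells, Col3a1 (-0.79) and S100a4 (-1.41). S100a4 was also lower at 8 h than at 4 h (-0.65 and -0.86). Tubb3 was lower in wild type at 8 h (-0.40). Between genotypes at 8 h, Pdgfrb (0.75) and Tubb3 (0.73) were higher and S100a4 (-0.77) lower in CHOP-/- cells. No other marker of these lists was called in any comparison. The part of other cell types in the results below was not tested, and in bulk RNA fewer cells of a type cannot be told apart from less RNA per cell.

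After 8 h of tunicamycin, genes of translocation and transport were more often higher than lower in both genotypes. In wild type cells 17 of the 73 were higher and 1 was lower, and in CHOP-/- cells 17 were again higher and 1 lower. The share of all 5691 tested genes was 9.65% higher and 6.94% lower in wild type and 7.27% higher and 6.62% lower in CHOP-/- cells, against 23.3% and 1.37% of the members in each. A gene was called when its p from limma, adjusted over all tested genes by the Benjamini-Hochberg method, was under 0.05. The median log2 change of the 73 was 0.137 in each genotype, against -0.0154 for all genes in wild type and -0.0107 in CHOP-/- cells. The 17 higher genes of each genotype shared 13, which is 76.5% of each list, and Trappc1 was the lower gene in both. These 2 comparisons have no array in common. Across the 73 genes, which are not independent replicates, their log2 changes had a Pearson r of 0.834, and 55 genes had the same sign. Shared calls, r and signs were not taken over all genes, so this agreement need not be particular to the route.

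**Figure D1:**
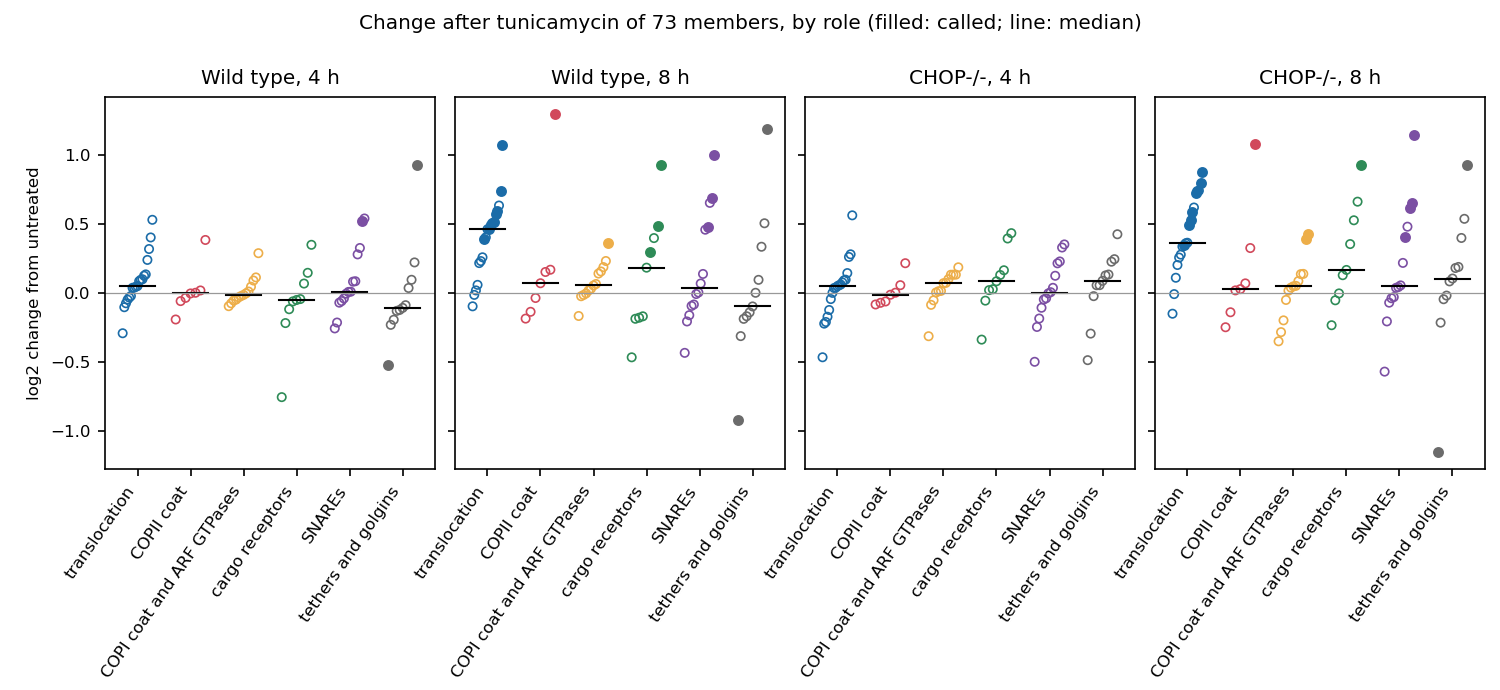
Log2 change from untreated cells (vertical axis) of the 73 tested genes, in columns by role, after 4 h and 8 h of tunicamycin in wild type and CHOP-/- cells; filled points were called at an adjusted p under 0.05 and lines mark medians. Filled points are few at 4 h. At 8 h the translocation column lies highest in both genotypes, with medians of 0.46 and 0.36 and 8 of 19 genes called in each.

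Members called higher were counted by group within the route. The share of all genes was 9.65% in wild type and 7.27% in CHOP-/- cells. Of the 19 translocation genes 8 (42.1%) were higher in each genotype, with median log2 changes of 0.461 in wild type and 0.363 in CHOP-/- cells. The COPII coat gave 1 of 7 (14.3%) in each. In the COPI and ARF group it was 1 of 13 (7.69%) in wild type and 2 of 13 (15.4%) in CHOP-/- cells. Cargo receptors gave 3 and 1 of 9 (33.3% and 11.1%), and SNAREs 3 and 4 of 14 (21.4% and 28.6%). Tethers and golgins gave 1 higher and 1 lower of 11 (9.09% each) in each genotype, against 6.94% and 6.62% of all genes lower. In wild type the COPI and ARF group and the tethers and golgins thus did not exceed the share of all genes. Medians of these other groups lay between -0.0992 and 0.182 in wild type and between 0.0264 and 0.166 in CHOP-/- cells. Differences between the role groups were not tested.

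Start-site sequences were searched. RefSeq windows (GRCm38.p6) of 300 bases, from 250 before to 50 after a transcription start, were found for 63 of the 77 genes and 27025 genes in all. The searched letters, on both strands, were TGACGTGG (the unfolded protein response element), its inner CCACG, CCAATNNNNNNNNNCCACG (the ER stress response element), ATTGGNCCACG (element II) and TGATGCAA (the C/EBP-ATF composite element). TGACGTGG was in 6 of the 63 genes, 9.52%, against 0.714% of all genes. The short CCACG was in 66.7% against 35.5%, and every TGACGTGG match contains it. The other 3 motifs were in none of the 63, against 0.137%, 0.0444% and 1.03% of all genes. The 27025 genes were not limited to those on the array or tested here, so these gaps need not be particular to the route. TGACGTGG was in 2 of 16 genes higher at 8 h in either genotype (12.5%) and in 4 of 43 uncalled genes (9.3%). The 6 genes were Stx5a, Copb1, Copb2, Arf1, Kdelr3 and Sec23a. The windows shown are those of Stx5a and Copb1, which were higher in both genotypes and hold the letters, of Sec23b, which was higher without them, and of its paralogue Sec23a, which holds them and was not called. Sec23a was added after its values were seen. Capitals mark TGACGTGG or its reverse complement, and each run reads 5′ to 3′ along the gene's strand.
Stx5a, chr19:8741174-8741473, plus strand: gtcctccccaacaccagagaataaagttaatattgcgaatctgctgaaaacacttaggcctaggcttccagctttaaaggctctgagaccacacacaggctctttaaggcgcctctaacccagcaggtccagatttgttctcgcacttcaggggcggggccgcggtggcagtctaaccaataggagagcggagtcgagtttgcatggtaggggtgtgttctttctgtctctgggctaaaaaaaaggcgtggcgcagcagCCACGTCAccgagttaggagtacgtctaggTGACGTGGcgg
Copb1, chr7:114254631-114254930, minus strand: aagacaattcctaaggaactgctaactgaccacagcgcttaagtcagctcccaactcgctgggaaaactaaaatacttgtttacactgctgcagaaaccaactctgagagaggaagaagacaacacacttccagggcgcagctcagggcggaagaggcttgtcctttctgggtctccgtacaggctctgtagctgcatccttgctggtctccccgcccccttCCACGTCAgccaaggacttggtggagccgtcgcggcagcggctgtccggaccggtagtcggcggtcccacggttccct
Sec23b, chr2:144555979-144556278, plus strand: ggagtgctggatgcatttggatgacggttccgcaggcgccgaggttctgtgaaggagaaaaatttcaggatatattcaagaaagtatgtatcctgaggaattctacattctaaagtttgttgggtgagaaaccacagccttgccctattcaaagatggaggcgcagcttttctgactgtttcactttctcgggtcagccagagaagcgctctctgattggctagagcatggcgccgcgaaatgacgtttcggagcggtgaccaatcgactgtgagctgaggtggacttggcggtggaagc
Sec23a, chr12:59011968-59012267, minus strand: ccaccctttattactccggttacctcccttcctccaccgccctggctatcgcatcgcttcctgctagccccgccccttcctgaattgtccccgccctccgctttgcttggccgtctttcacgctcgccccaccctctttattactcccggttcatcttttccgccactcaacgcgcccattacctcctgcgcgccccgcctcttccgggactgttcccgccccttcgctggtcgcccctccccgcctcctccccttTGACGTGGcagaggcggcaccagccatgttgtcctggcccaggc
The first matched base is at 10 and 40 after the start for Stx5a, at 28 before it for Copb1 and at 7 after it for Sec23a. A match is a string of letters, and absence says only that these letters are not in the window.

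Among the translocation genes, the signal recognition particle and its receptor gave the largest rises that were called in wild type cells. Srp68, a subunit of the particle, had signals of 1021, 955, 902 and 1092 on arrays A to D of untreated wild type cells, 1224, 1220.4, 1066 and 1377 at 4 h, and 1692, 1548, 1704 and 1710.3 at 8 h. Srp68 in CHOP-/- cells gave 1182, 1065, 1113 and 971 untreated, 1039.7, 1348, 1019.8 and 1064 at 4 h, and 1549, 1711, 1676 and 1492 at 8 h. All 8 h arrays of a genotype lay above all its untreated arrays. The log2 change of Srp68 at 8 h was 0.74 (SE 0.107, adjusted p = 3.02e-05, limma) in wild type and 0.59 (adjusted p = 0.000504) in CHOP-/- cells.

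Srprb anchors the receptor of the particle in the ER membrane. Its signals were low, at 25, 35.1, 32.7 and 45.2 in untreated wild type cells, 89.6, 42.1, 37.4 and 51.6 at 4 h, and 68.5, 68.5, 80.8 and 88.2 at 8 h. For Srprb the CHOP-/- arrays read 45.7, 26.8, 27.6 and 35.0 untreated, 31.1, 47.0, 48.0 and 43.1 at 4 h, and 54.0, 76.3, 62.2 and 56.0 at 8 h. The 8 h arrays again lay above the untreated ones in each genotype, and the wild type 4 h array A lay above all its 8 h arrays. The log2 change of Srprb at 8 h was 1.07 (SE 0.194, adjusted p = 0.000401, limma) in wild type and 0.88 (adjusted p = 0.00307) in CHOP-/- cells, which the added pseudocount understates at such signals.

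The other receptor subunit, Srpr, rose in wild type cells from 1892 ± 149 to 2875 ± 320 (SD, n = 4), a log2 change of 0.59 (adjusted p = 0.00268, limma). Its change in CHOP-/- cells was 0.26 (adjusted p = 0.218), and a further Srpr probe set gave 0.75 and 0.57 in the same order, neither called. Srp19 was called in CHOP-/- cells, at 0.74 (adjusted p = 0.0195), and had 0.26 in wild type cells (adjusted p = 0.471). For Srpr and Srp19 the difference between the genotypes' responses was not called, at -0.34 (95% interval -0.722 to 0.0471) and 0.48 (-0.134 to 1.09). Srp9 and Srp14, which form the end of the particle that slows translation, had changes of 0.63 and 0.06 in wild type and 0.62 and -0.01 in CHOP-/- cells, none called. Srp54b, named for the subunit that binds signal peptides and with near-identical copies in the mouse genome, had -0.02 and 0.11, so that its probe set's target is uncertain.

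In and around the channel, the translocon-associated proteins Ssr2 and Ssr3 and the signal peptidase subunits Sec11a and Spcs2 were higher in both genotypes. Ssr2 went from 759, 824, 842 and 960.5 in untreated wild type cells through 681, 943, 919 and 997 at 4 h to 1302, 1073, 1316 and 1228 at 8 h. In CHOP-/- cells Ssr2 went from 786, 854, 809.6 and 921 through 768, 848, 962 and 847 to 1249.9, 956, 1318 and 1222. The 4 h arrays overlapped the untreated ones and the 8 h arrays did not. The log2 change of Ssr2 at 8 h was 0.52 (SE 0.124, adjusted p = 0.00521, limma) in wild type and 0.49 (adjusted p = 0.009) in CHOP-/- cells. Ssr3 had a smaller change, 0.39 (adjusted p = 0.0188) and 0.35 (adjusted p = 0.0436), and its wild type arrays overlapped, with 3579 to 4723 untreated and 4264 to 6266 at 8 h. The mean of its 3 probe sets gave 0.50 and 0.42 (adjusted p = 0.0824 and 0.165, limma), neither called. Ssr1 was called in wild type at 0.51 (adjusted p = 0.0244) and had 0.34 in CHOP-/- cells (adjusted p = 0.16).

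Sec11a, a catalytic subunit of signal peptidase, gave 1476, 1340.1, 1378 and 1571 in untreated wild type cells, 1455, 1503, 1302 and 1492 at 4 h, and 1822, 1865, 2089 and 1956 at 8 h. The CHOP-/- signals of Sec11a were 1146, 1380.1, 1132 and 1492 untreated, 1310.3, 1414, 1305 and 1394 at 4 h, and 1675, 1879.5, 1847 and 1966 at 8 h. The 4 h arrays overlapped the untreated ones, while every 8 h array lay higher, by a log2 change of 0.47 (SE 0.0995, adjusted p = 0.00183, limma) in wild type and 0.52 (adjusted p = 0.000767) in CHOP-/- cells. Spcs2, an accessory subunit, gave 518, 518, 606 and 569 in untreated wild type cells, 562, 776, 666 and 655 at 4 h, and 679.7, 794, 939 and 951 at 8 h. Spcs2 in CHOP-/- cells gave 565, 519.6, 401 and 678 untreated, 579.9, 732, 461 and 567 at 4 h, and 822, 758, 1013 and 1172 at 8 h. The spread within groups was wide for Spcs2, but the 8 h and untreated arrays did not overlap, and the log2 changes were 0.57 (SE 0.163, adjusted p = 0.0179, limma) and 0.79 (adjusted p = 0.00164).

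Of the channel itself, Sec61a1 had a log2 change of 0.46 in wild type (adjusted p = 0.0672) and 0.36 in CHOP-/- cells (adjusted p = 0.173), and Sec61b had 0.23 and 0.20. Sec61a2 had 0.22 and -0.15. Sec63, which with Sec62 assists the channel, was called in CHOP-/- cells at 0.73 (adjusted p = 0.0135) and had 0.49 in wild type cells (adjusted p = 0.0923), with a response difference of 0.24 (95% interval -0.331 to 0.809). Sec62 had -0.10 and 0.28, and Sec11c and Spcs1 had 0.40 and 0.02 in wild type and 0.74 and 0.36 in CHOP-/- cells, none called.

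In the wild type comparisons, deviations from group means correlated between arrays of the same letter. With the letter as a block over the 8 arrays of the 8 h comparison, 24 members were higher and 3 lower. In that fit 15% of all genes were higher and 13.7% lower. Of the translocation genes 13 of 19 were then called, the additions being Sec11c, Sec61a1 (adjusted p = 0.00505), Sec61b, Sec63 and Srp9 (adjusted p = 0.00297). Sec22b and Golga4 also joined the higher genes, and Kdelr2 and Trappc2l the lower ones. That fit, added after seeing the data, kept all 18 calls of the unblocked fit. With the block over all 24 arrays, Sec61a1 alone of these additions was called (adjusted p = 0.0388, limma). There Sec63 had 0.0535, Srp9 0.0688, Sec22b 0.0743, Trappc2l 0.115, Golga4 0.194, Sec61b 0.266, Sec11c 0.272 and Kdelr2 0.32. Of the 18 unblocked calls, 12 held in every alternative in which the gene was tested, and 6 did not. Copb1 ended on median centring (adjusted p = 0.0683). Spcs2 ended without untreated array A or 8 h array C or D (0.053, 0.0553 and 0.0623), and Tmed3 without untreated A or C or 8 h B or D (0.109, 0.08, 0.0769 and 0.0876). Ssr1 ended in 5 of 19 alternatives, among them those without untreated A or C or 8 h A or D (0.0635, 0.112, 0.0539 and 0.1005). Ssr3 ended in 6: median centring (0.17), values as deposited (0.132), the mean of its probe sets (0.0824), and without untreated A or C or 8 h B (0.0534, 0.068 and 0.0735). Tmed7 ended in 8. They were median centring (0.272), values as deposited (0.0993), the mean of its probe sets (0.238) and only the compared arrays (0.0575). The rest were those without untreated D or 8 h A, B or C (0.103, 0.0543, 0.0704 and 0.0941).

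In the COPII coat 1 member was called. Sec23b, a subunit of the inner coat, gave 459, 556, 454 and 519 in untreated wild type cells, 654, 697, 512 and 765 at 4 h, and 1164, 1118, 1169.5 and 1587 at 8 h. For Sec23b the CHOP-/- arrays read 606, 591, 508 and 529 untreated, 685, 696, 649 and 547 at 4 h, and 1261, 1133, 1166 and 1155 at 8 h. The 8 h signals were more than any at 4 h in either genotype. This was the largest rise of any member in wild type cells, a 2.46-fold change (log2 1.30, SE 0.13, adjusted p = 1.85e-07, limma), and it was 2.11-fold (log2 1.08, adjusted p = 3.6e-06) in CHOP-/- cells. Array D in wild type cells at 8 h stood above the other 3. A second Sec23b probe set, of mean signal 33.7, gave 0.98 in wild type and 0.22 in CHOP-/- cells, neither called, and the mean of both probe sets gave 1.14 and 0.65 (adjusted p = 0.000324 and 0.0326, limma), both called.

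Its paralogue Sec23a, which occupies the same place in the coat, was not called. Sec23a gave 2219 to 2532 in untreated wild type cells and 1975 to 2724 at 8 h, and 2215 to 2564 and 2350.0 to 2633 in CHOP-/- cells. The arrays overlapped, and the log2 change was -0.04 (95% interval -0.263 to 0.187) in wild type and 0.02 (-0.208 to 0.243) in CHOP-/- cells. The GTPases Sar1a and Sar1b, which start coat assembly, had 0.15 and -0.19 in wild type and 0.07 and -0.25 in CHOP-/- cells. Sec24c, of the cargo-binding subunits, had 0.17 and 0.32, and the outer coat genes Sec13 and Sec31a had -0.14 and 0.07 in wild type and -0.14 and 0.03 in CHOP-/- cells. None of these 6 was called.

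Few genes of the COPI coat and the ARF GTPases were called. Copb1, a subunit of the coat, gave 764, 743, 879 and 829.9 in untreated wild type cells, 747, 967, 865 and 904 at 4 h, and 997, 1002, 1138 and 1034 at 8 h. The CHOP-/- signals of Copb1 were 739, 821, 733 and 823 untreated, 909.7, 819.6, 846 and 772 at 4 h, and 1053, 981, 1051 and 1102 at 8 h. The 8 h arrays lay above the untreated ones in each genotype, a 1.29-fold change in wild type (log2 0.36, SE 0.096, adjusted p = 0.0105, limma) and 1.34-fold in CHOP-/- cells (log2 0.42, adjusted p = 0.00375). Arcn1, the delta subunit of the coat, was called at 8 h in CHOP-/- cells (0.39, adjusted p = 0.0167) and had 0.15 in wild type cells; its levels are given with the genotypes. The other coat genes, Copa, Copb2, Cope, Copg1, Copz1 and Copz2, had changes between -0.17 and 0.23 in wild type and between -0.29 and 0.14 in CHOP-/- cells. The ARF GTPases, which recruit the coat, had changes between -0.03 and 0.06 in wild type and between -0.35 (Arf5) and 0.08 in CHOP-/- cells.

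Among the cargo receptors, Lman2, a lectin that binds glycoproteins in transit, was higher in both genotypes. Its signals were 812, 942, 854 and 901 in untreated wild type cells, 969.9, 1218, 1026 and 1266 at 4 h, and 1692, 1569.7, 1618 and 1912 at 8 h. Lman2 in CHOP-/- cells gave 811, 863, 715 and 853 untreated, 1039, 1148, 1075 and 929 at 4 h, and 1669, 1394, 1462 and 1573 at 8 h. The 4 h arrays lay above the untreated and below the 8 h arrays in each genotype, with no overlap. At 8 h the fold change of Lman2 was 1.91 in wild type (log2 0.93, SE 0.103, adjusted p = 8.54e-07, limma) and 1.90 in CHOP-/- cells (log2 0.92, adjusted p = 1.17e-06). A second Lman2 probe set, of mean signal 27.1, gave 0.05 and 0.20, and the mean of both gave 0.49 and 0.56 (adjusted p = 0.0238 and 0.0123, limma), both called. The related lectin Lman1 had 0.40 (adjusted p = 0.34) and 0.13.

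The p24 family member Tmed3 was called in wild type at 0.48 (adjusted p = 0.0268, limma), from 1179 ± 214 to 1648 ± 189 (SD, n = 4), and had 0.35 in CHOP-/- cells (adjusted p = 0.12). Tmed7, of the same family, was called in wild type at 0.29 (adjusted p = 0.0278) with overlapping arrays and had 0.17 in CHOP-/- cells. A second Tmed7 probe set gave 0.16 in wild type and 0.53 in CHOP-/- cells, neither called. Tmed4 had -0.17 and -0.05, and Tmed9 had 0.18 and 0.53, none called. The KDEL receptors, which return ER chaperones from the Golgi, were not called in the unblocked fit at any time: at 8 h Kdelr1 had -0.18 and -0.24, Kdelr3 had -0.19 and -0.00, and Kdelr2 had -0.47 and 0.66.

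Kdelr2, singled out after its values were seen, spread widely within groups. Its signals were 393, 549.8, 615 and 1747 in untreated wild type cells, 277, 307, 572 and 623 at 4 h, and 414, 434, 401 and 899.5 at 8 h. For Kdelr2 the CHOP-/- arrays read 276, 423, 328 and 389 untreated, 419, 256, 543 and 834 at 4 h, and 333, 268, 558 and 1893 at 8 h. Array D was the highest in 5 of the 6 groups.

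Of the SNAREs, which drive vesicle fusion, every called one belongs to the ER-Golgi route. Stx5a, the syntaxin of the Golgi, gave 624, 796, 704 and 596 in untreated wild type cells, 987, 1126, 816 and 973 at 4 h, and 1269, 1400.5, 1199 and 1663 at 8 h. The CHOP-/- signals of Stx5a were 680.3, 621, 736 and 799 untreated, 815, 1078, 856 and 778 at 4 h, and 1456, 1609, 1624 and 1506 at 8 h. In wild type cells the 3 times did not overlap, whereas in CHOP-/- cells the 4 h arrays overlapped the untreated ones. The fold change of Stx5a at 8 h was 2.00 in wild type (log2 0.997, SE 0.132, adjusted p = 9.73e-06, limma) and 2.21 in CHOP-/- cells (log2 1.15, adjusted p = 1.78e-06), the largest of any member in the latter.

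Stx18, a syntaxin of the ER that receives returning vesicles, gave 142, 141, 142 and 180.0 in untreated wild type cells, 191, 196, 189 and 219.5 at 4 h, and 250.3, 223, 246 and 301 at 8 h. Stx18 in CHOP-/- cells gave 163, 179, 154 and 193 untreated, 166, 200.1, 232 and 195 at 4 h, and 299, 224, 260.1 and 306 at 8 h. The 8 h arrays lay above the untreated ones, by a log2 change of 0.68 (SE 0.144, adjusted p = 0.00165, limma) in wild type and 0.65 (adjusted p = 0.00314) in CHOP-/- cells. Gosr2, a Golgi SNARE that works with Stx5a, gave 475, 508, 524 and 519 in untreated wild type cells, 514, 553, 449 and 541 at 4 h, and 704, 654, 746 and 756 at 8 h. For Gosr2 the CHOP-/- arrays read 550.0, 561, 674 and 530.4 untreated, 573, 698, 495 and 476 at 4 h, and 739.7, 817, 773 and 729 at 8 h. Its 4 h and untreated arrays overlapped in both genotypes, and the 8 h change was 0.48 (SE 0.115, adjusted p = 0.00501, limma) and 0.40 (adjusted p = 0.0197). In a fit over all probe sets, another Gosr2 probe set was called at 0.46 and 0.37, a further one gave 0.60 (called) and 0.47 (adjusted p = 0.115), and the last had a mean signal of only 0.567.

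Sec22b, a SNARE of ER-derived vesicles, was called in CHOP-/- cells at 0.61 (adjusted p = 0.0334, limma) with overlapping arrays, and had 0.46 in wild type cells (adjusted p = 0.113). Its second probe set, of like mean signal, gave 0.01 in wild type and 0.02 in CHOP-/- cells, so the 2 probe sets of Sec22b disagree. Bet1 and Gosr1 had 0.00 and -0.09 in wild type and -0.07 and 0.22 in CHOP-/- cells, neither called. The other syntaxins matched by the symbol rule (Stx1a, Stx2, Stx3, Stx4a, Stx6, Stx7, Stx8 and Stx12) have their textbook place at the plasma membrane, the trans-Golgi network or endosomes. None of these 8 was called, with changes between -0.44 (Stx3) and 0.65 (Stx1a) in wild type and between -0.57 and 0.48 in CHOP-/- cells.

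**Figure D2:**
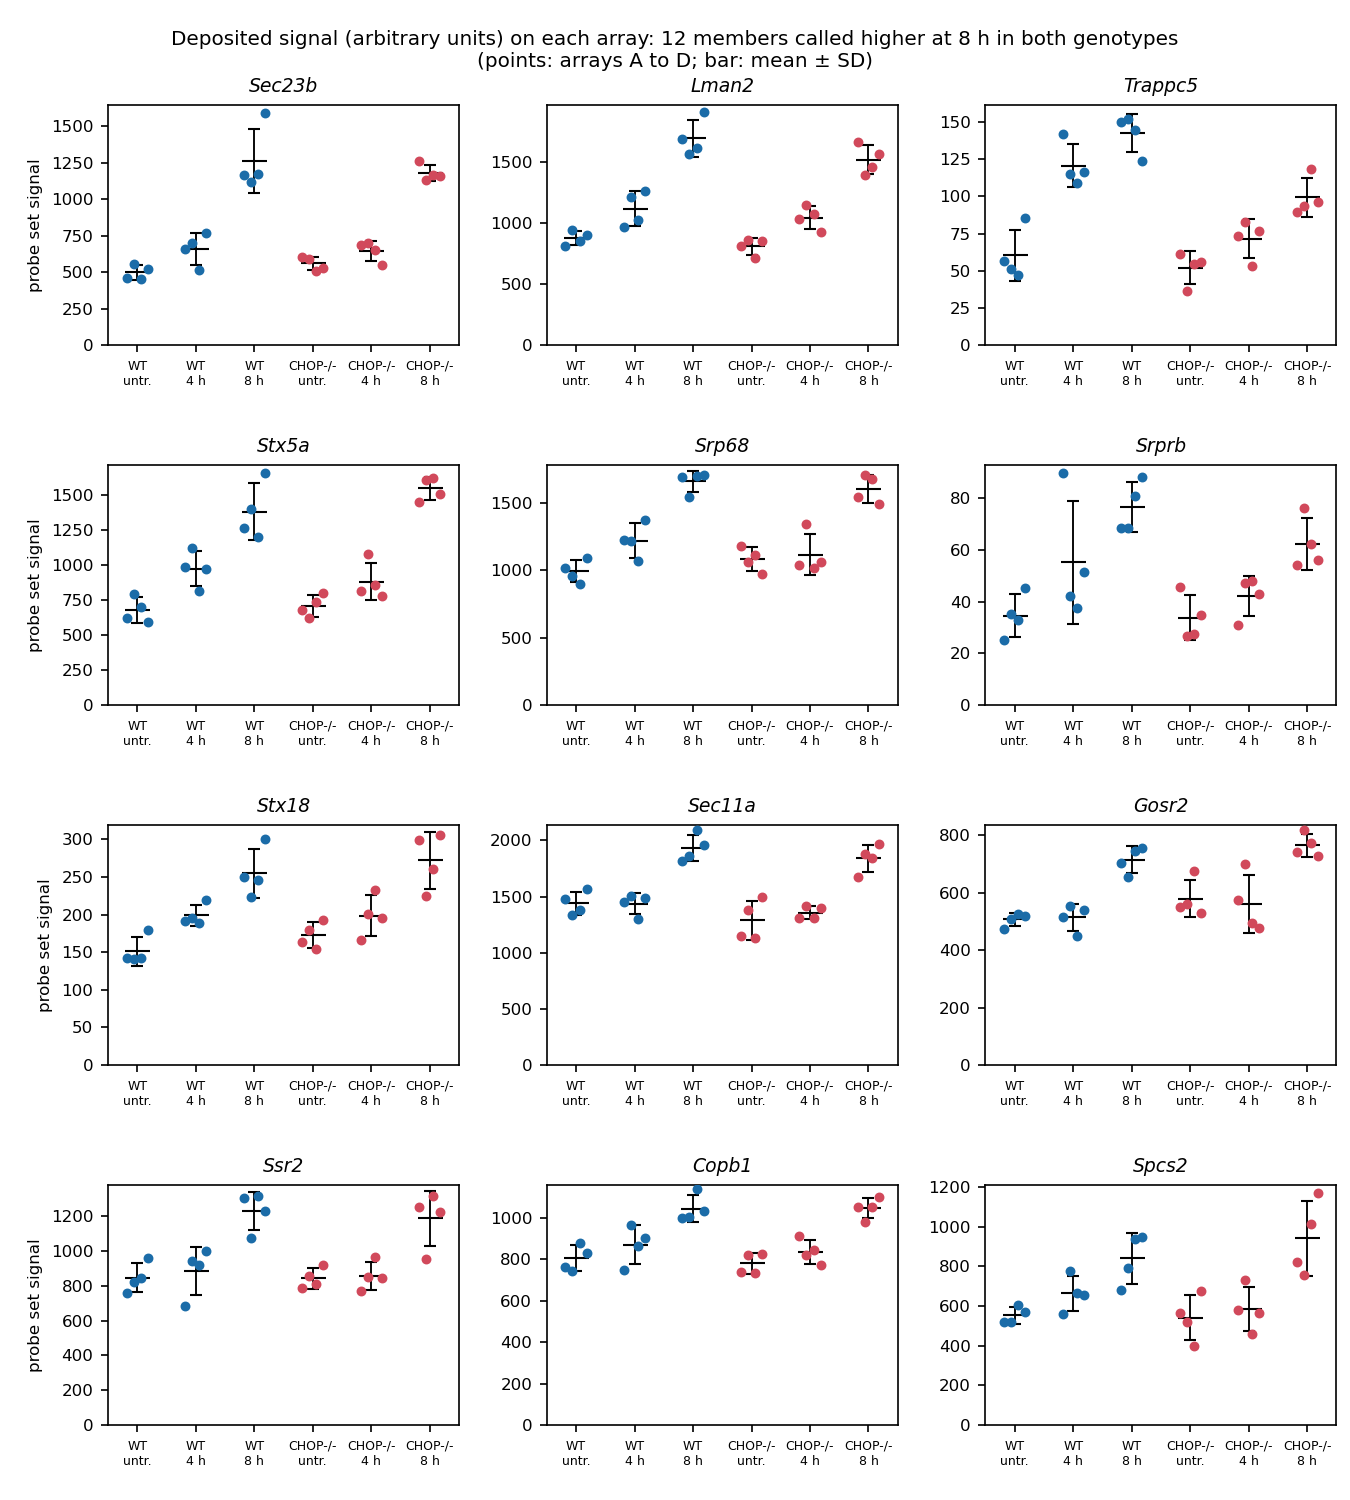
Deposited probe set signal in arbitrary units (vertical axes, starting at 0) on each array of 12 genes called higher at 8 h in both genotypes, by genotype and time; points are arrays A to D and bars the mean ± SD of 4 arrays. Sec23b sits between 1118 and 1587 at 8 h against 454 to 606 untreated, and the 4 h arrays of Ssr2, Sec11a and Gosr2 lie among the untreated ones.

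Among the tethers, the higher and the lower gene are both subunits of the TRAPP complex, which tethers vesicles at the Golgi. Trappc5 gave 56.5, 51.4, 47.3 and 85.7 in untreated wild type cells, 142, 115, 109 and 117 at 4 h, and 150.2, 152, 145 and 124 at 8 h. The CHOP-/- signals of Trappc5 were 61.5, 36.3, 54.8 and 55.7 untreated, 73.1, 83.0, 53.2 and 76.9 at 4 h, and 89.3, 93.5, 118 and 96.1 at 8 h. In wild type cells the 4 h arrays already lay above the untreated ones, and in CHOP-/- cells the 8 h arrays did. At 8 h the log2 change of Trappc5 was 1.19 (SE 0.152, adjusted p = 6.22e-06, limma) in wild type and 0.93 (adjusted p = 0.000175) in CHOP-/- cells.

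Trappc1 went the other way. It gave 762, 846, 782 and 894 in untreated wild type cells, 458, 609, 563 and 694 at 4 h, and 399.7, 442, 393 and 503 at 8 h. Trappc1 in CHOP-/- cells gave 887, 777, 838 and 828 untreated, 519, 589, 596 and 651 at 4 h, and 285, 376, 409 and 426 at 8 h. No 8 h array overlapped an untreated array. The 8 h signal fell to 0.527 of the untreated level in wild type (log2 -0.92, SE 0.138, adjusted p = 4.98e-05, limma) and to 0.448 in CHOP-/- cells (log2 -1.16, adjusted p = 3.16e-06). The other TRAPP genes, Trappc2l, Trappc3, Trappc4, Trappc10 and Trappc12, had changes between -0.31 and 0.09 in wild type and between -0.22 and 0.19 in CHOP-/- cells, none called in the unblocked fit. The golgins, coiled-coil tethers of the Golgi, were not called either: Golga4 had 0.50 and 0.54 (adjusted p = 0.225 and 0.199), Golga5 0.33 and 0.40, Golga3 -0.10 and 0.18, and Golga7 -0.17 and 0.10.

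In CHOP-/- cells 9 of the 18 calls at 8 h held in every alternative in which the gene was tested. Copb1, Ssr2 and Stx18 ended in 1 alternative each, the letter as a block over the 8 arrays. There same-letter arrays correlated at -0.0914 to 0.27. The other 6 ended on leaving out single arrays, among other alternatives. Sec63 ended without 8 h array D (adjusted p = 0.0532), Arcn1 without untreated A or D or 8 h A (0.0722, 0.0515 and 0.0769), and Gosr2 without untreated A or D or 8 h B (0.062, 0.0595 and 0.0542). Srp19 ended without untreated A or C or 8 h C or D (0.0555, 0.0648, 0.0736 and 0.0633), and Sec22b without untreated B, C or D or 8 h B or D (0.0936, 0.0655, 0.0841, 0.0944 and 0.114). Ssr3 ended in 12 of 19 alternatives, among them those without any of the 4 untreated arrays or without 8 h B, C or D. Its highest adjusted p over all alternatives was 0.165, with the mean of its probe sets.

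At 4 h 3 members were called in wild type cells and none in CHOP-/- cells. In wild type cells Stx5a (log2 0.52, adjusted p = 0.0367, limma) and Trappc5 (0.92, adjusted p = 0.000753) were higher and Trappc1 was lower (-0.53, adjusted p = 0.0438), that is 2.74% of the 73 higher and 1.37% lower, against 1.79% and 0.334% of all genes. With the letter as a block over the 8 arrays the same 3 members were called (adjusted p = 0.0417 for Stx5a, 0.0177 for Trappc5 and 0.0352 for Trappc1), against 2.5% of all genes higher and 0.896% lower. Trappc5 held in all 18 alternatives, Stx5a ended in 8 of 19 and Trappc1 in 12 of 19. Stx5a ended without untreated array A, C or D or 4 h array A, B or D (adjusted p = 0.133, 0.0703, 0.125, 0.101, 0.145 and 0.0902), and Trappc1 without any single untreated array or 4 h A, B or C (0.0823, 0.12, 0.0727, 0.137, 0.205, 0.0713 and 0.0874). In CHOP-/- cells no member was called by limma, against 0.966% of all genes higher and 0.545% lower. There 6 members, 8.22%, had an unadjusted p under 0.05, against 11.6% of all genes: Lman2 (0.39, adjusted p = 0.0549), Stx5a (0.33), Trappc5 (0.42) and Sec11c (0.56) upwards and Trappc1 (-0.49, adjusted p = 0.0836) and Sec61a2 (-0.47) downwards. The 4 h and 8 h comparisons of a genotype use the same untreated arrays, so their agreement is not independent.

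Between 4 h and 8 h, 9 members were higher at 8 h in wild type cells and none was lower, against 2.09% and 2.04% of all genes. They were Sec23b (0.92, adjusted p = 0.000128, limma), Lman2 (0.58), Ssr1 (0.56), Stx5a (0.48), Gosr2 (0.47), Ssr2 (0.47), Srpr (0.46), Sec11a (0.43) and Srp68 (0.42). With the letter as a block over those 8 arrays 12 were called: Sec61b, Srp9, Lman1 and Tmed3 joined and Ssr2 left (adjusted p = 0.0631), against 3.51% of all genes higher and 3.99% lower. That fit was added after seeing the data. With the block over all 24 arrays Sec61b, Srp9, Lman1 and Tmed3 were not called (adjusted p = 0.184, 0.276, 0.426 and 0.199, limma). There Ssr2 stayed (0.0188), Srpr left (0.051) and Trappc1 was called lower (0.0429), so the 2 block fits disagree on these genes. None of the 9 unblocked calls held in every alternative. Sec23b and Lman2 ended on the mean of all probe sets of a gene alone (log2 0.57 and 0.32, adjusted p = 0.131 and 0.282). Sec11a ended with only the compared arrays (0.0728) and without 4 h array C (0.0679), and Gosr2 in 4 of 19 alternatives. Srp68 ended in 6, Ssr1, Ssr2 and Stx5a in 8 each and Srpr in 11, with an adjusted p of at most 0.171. Leaving out any single array of the 8 ended some of these calls. Leaving out an array lowered the unblocked count to 2 (4 h array C), 4 (8 h array A) and 3 (8 h array D). In CHOP-/- cells 11 were higher and Trappc1 was lower (-0.67, adjusted p = 0.00628), against 3.43% and 2.13% of all genes. The largest of these were Srp19 (0.96, adjusted p = 0.00887), Sec23b (0.86, adjusted p = 0.000315) and Stx5a (0.82, adjusted p = 0.000627), followed by Sec63, Spcs2, Lman2, Srp68, Ssr2, Gosr2, Sec11a and Arcn1. Of these 12 calls Stx5a alone held in every alternative. Sec23b ended on the mean of all probe sets (log2 0.41, adjusted p = 0.269), and so did Lman2 (0.22, adjusted p = 0.434). Srp19 ended with only the compared arrays (0.0682), with or without the letter as a block, and Srp68 and Trappc1 with that block alone (0.0694 and 0.0588). Sec11a ended with the block (0.0928) and without 8 h array D (0.0501), Spcs2 in 6 of 19 alternatives, Gosr2 in 8, and Arcn1, Sec63 and Ssr2 in 9 each. Any single array of the 8, when left out, ended some of these calls. Leaving out a CHOP-/- array lowered the count to 7 (4 h array D) and 6 (8 h array D).

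Few members differed in level between the genotypes by the test, and few of all tested genes did. Of the 73, none was higher in CHOP-/- than in wild type cells at any time, against 0.615% of all genes untreated, 1.18% at 4 h and 2.25% at 8 h. At the same times 1, 2 and 1 were lower, which is 1.37%, 2.74% and 1.37% of the 73, against 0.369%, 1.32% and 1.92% of all genes. Arcn1 was the lower gene each time. Its signals were 685, 679.8, 731 and 736 in untreated wild type cells, 715, 741, 788 and 697 at 4 h, and 801, 801, 790.0 and 806 at 8 h. For Arcn1 the CHOP-/- arrays read 339, 419, 413 and 347 untreated, 374, 396, 309.7 and 411 at 4 h, and 572, 456, 464 and 494 at 8 h. The highest CHOP-/- array lay below the lowest wild type array. The log2 difference was -0.93 untreated (SE 0.109, adjusted p = 3.95e-05, limma), -0.97 at 4 h and -0.69 at 8 h. An exact two-sided permutation test gave p = 0.0286 each time, the smallest that 4 arrays against 4 allow. Groups without overlap always give this value, so it adds no support. Of the 73, 2 members untreated, 3 at 4 h and 3 at 8 h had no overlap between the genotypes. Of all 5691 genes, 291, 380 and 641 had none. A second probe set of Arcn1, of mean signal 128, gave -0.17, -0.19 and -0.13, none called, and with the mean of all probe sets of a gene the Arcn1 difference was -0.44, -0.28 and -0.30 and was not called (adjusted p = 0.216, 0.34 and 0.282). The remaining one, of mean signal 8.84, gave -0.22, 0.31 and -0.06. The call for Arcn1 thus rests on 1 probe set.

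Trappc5 was the other lower gene at 4 h, with a log2 difference of -0.73 (SE 0.152, adjusted p = 0.00855, limma), with no overlap between the genotypes' arrays. At 8 h its difference was -0.49 (adjusted p = 0.0713), again with no overlap. With the letter as a block over all 24 arrays the adjusted p was 0.0768 (limma), not called. With the block over the 8 arrays, where same-letter arrays correlated, it was 0.044, in a fit added after seeing the data. That fit called 5.32% of all genes lower. The exact permutation p of Trappc5 was 0.286 untreated. At 4 h and at 8 h the permutation p was 0.0286, which groups without overlap always give, so it adds no support. With only the arrays of the compared groups in the fit the 4 h difference was not called (adjusted p = 0.0814).

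**Figure D3:**
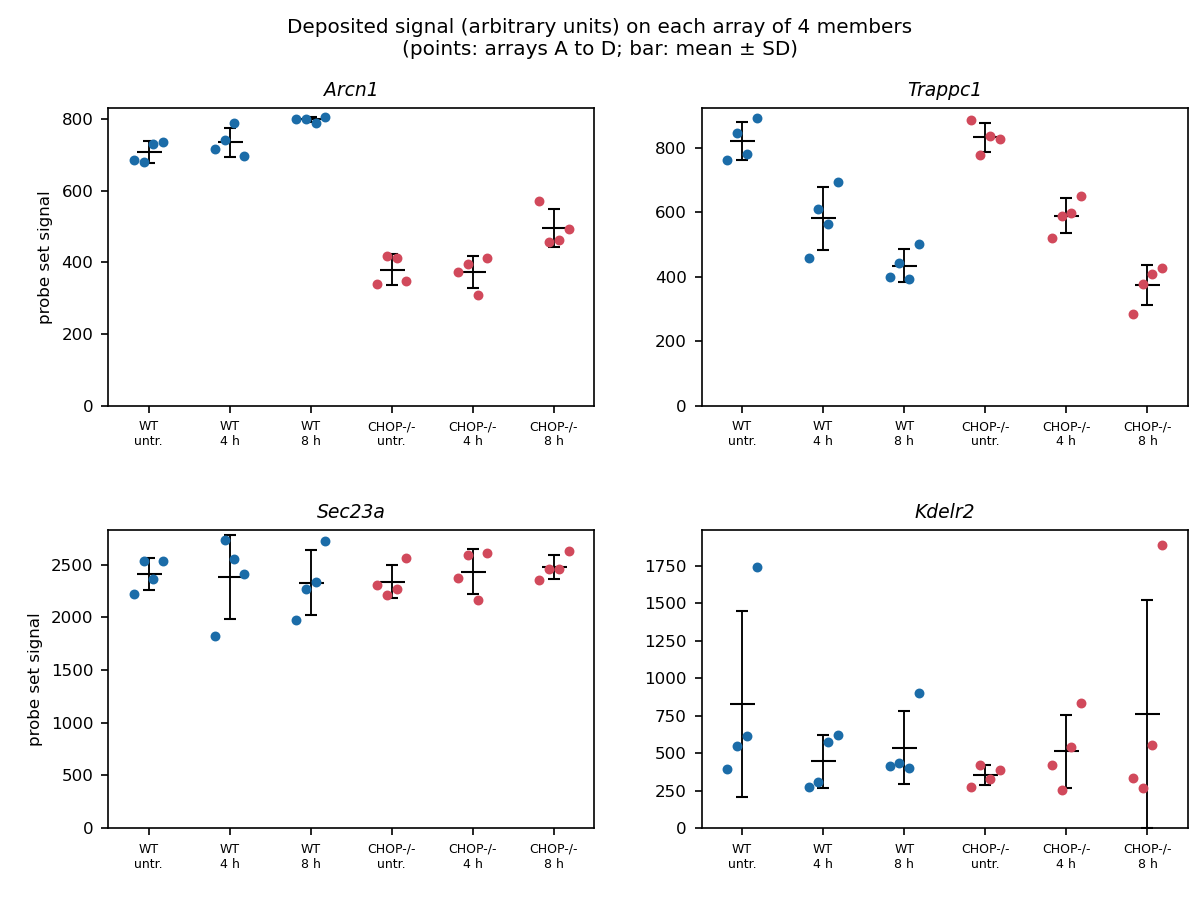
Deposited probe set signal in arbitrary units (vertical axes, starting at 0) on each array for Arcn1, Trappc1, Sec23a and Kdelr2, by genotype and time; points are arrays A to D and bars the mean ± SD of 4 arrays. Arcn1 lies at 679.8 or more in wild type and at 572 or less in CHOP-/- arrays, Trappc1 steps down with time in both genotypes, and Kdelr2 has single high arrays up to 1893.

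Whether CHOP loss changed the response was tested as a response difference: the CHOP-/- log2 change minus the wild type one. No member was called at 4 h or at 8 h, and of all genes 0% and 0.0351% were. At an unadjusted p under 0.05 there was 1 member at 4 h (1.37%, against 4.04% of all genes), Trappc5, with a response difference of -0.50 (95% interval -0.944 to -0.0559, adjusted p = 0.996, limma), and none at 8 h, against 4.6% of all genes. For the 13 genes higher at 8 h in both genotypes the response difference lay between -0.26 and 0.22, and the widest 95% intervals reached -0.764 and 0.702. For Sec23b it was -0.22 (-0.605 to 0.157), for Lman2 -0.01 (-0.307 to 0.296) and for Stx5a 0.15 (-0.236 to 0.535). Over all 73 it lay between -0.37 and 1.13, the latter for Kdelr2 (-0.333 to 2.59). Differences inside these intervals could not be resolved with 4 arrays per group, and a missed call does not show that the genotypes responded alike.

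**Figure D4:**
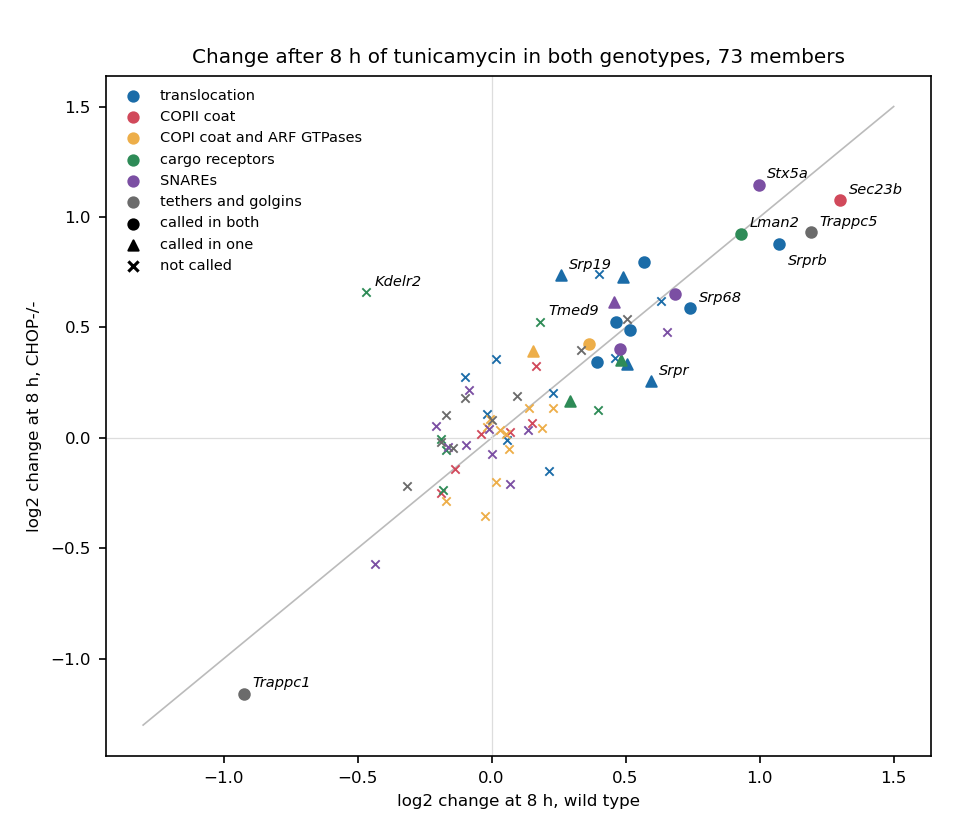
Log2 change at 8 h in wild type cells (horizontal axis) against CHOP-/- cells (vertical axis) for the 73 tested genes, coloured by role; circles were called in both genotypes, triangles in 1 and crosses in neither, and the grey line marks equal change. Sec23b, Trappc5, Stx5a, Srprb and Lman2 lie far out near the line at the upper right, Trappc1 at the lower left, and Kdelr2 is the farthest from the line.

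Genes of the same route outside the symbol pattern were listed separately, and 41 of them were tested. At 8 h 11 were higher and none lower in wild type, 26.8% against 9.65% of all genes, and 9 were higher and 1 lower in CHOP-/- cells, 22% against 7.27%. Their median log2 change was 0.161 and 0.233. At the ER exit site, Mcfd2, the partner of Lman1, had 0.99 in wild type and 0.81 in CHOP-/- cells, Ctage5, which helps export large cargo, had 0.75 and 0.76, and the scaffold Sec16a had 0.37 and 0.52, all called. Mia3, which loads collagen, was called in wild type at 0.64 (adjusted p = 0.0401, limma). The vesicle tether Uso1 had 1.03 and 0.96 and the Golgi stacking protein Gorasp2 had 0.37 and 0.30, all called. Of the oligosaccharyltransferase, the enzyme of N-glycosylation beside the channel, Rpn1 (0.49 and 0.54) and Ostc (0.34 and 0.36) were called in both genotypes and Ddost in wild type at 0.57. Arfgap3, which switches off ARF GTPases, had 0.47 and 0.98, was called in both, and at 8 h was higher in CHOP-/- than in wild type cells by 0.62 (adjusted p = 0.0238). No response difference of the 41 genes, Arfgap3 among them, was called at 4 h or 8 h. Calls in 1 genotype alone therefore do not show that the genotypes responded differently. Yipf5 was called in wild type (0.38), and in CHOP-/- cells Vapa was higher (0.23) and Ergic1 lower (-0.42).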

How the data were processed

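The deposited values were probe set signals of 24 arrays (unit: intensity), which the authors had scaled before deposit: from the values, the mean after removing 2% of 12488 probe sets at each end was 250.1 to 250.2 on every array. Which software made them is not stated in the labels. Before taking log2, 5.7 (the signals' 20th percentile) was added as a pseudocount, so changes of low signals are understated. The log2 values were quantile normalized. Genes were named through the platform's probe-to-gene table; of probe sets with 1 gene, the one with the highest mean stood for its gene (23 of the 77 members had several). Genes with a mean log2 value over 5.06, the 40th percentile, were tested: 5691. A model of 6 group means over all arrays was fitted with limma 3.58.1 (R 4.3.3; empirical Bayes with trend, residual degrees of freedom 18), with 11 contrasts, two-sided tests and Benjamini-Hochberg adjustment over all tested genes within a contrast. Log2 changes had a median SE of 0.189 and response differences one of 0.268. The procedure was tested on simulated data. The number of arrays limits the precision.

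Whether the letters A to D pair arrays was checked by correlating deviations from group means over all tested genes. Every same-letter pair exceeded 0.1 for wild type 4 h and 8 h against untreated (0.314 to 0.553 and 0.403 to 0.618), 8 h against 4 h (0.25 to 0.611) and for the genotypes at 8 h (0.286 to 0.546), and not in the other comparisons, so the block is given beside those results. However, wild type 4 h array A correlated less with 8 h array A (0.25) than with an 8 h array of another letter (0.405). Elsewhere in these comparisons the same letter gave the higher value. Alternatives were other pseudocounts, scalings, filters, probe set rules, array weights, sample choices and blocks, and leaving out each array. A block over only the arrays compared was added after seeing the data.

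All members could be named; values on every array are given for at most 12 in each direction, first those called at 8 h in both genotypes, then between genotypes, then in 1 genotype, by adjusted p. Values of other probe sets come from a fit over all probe sets. The members, role lists, related genes and rules were chosen with earlier results of these data known. Members matched RefSeq (GRCm38.p6) by gene ID in 77 of 77 cases. Software was Python 3.11.15 with pandas 2.3.3, numpy 2.4.6 and matplotlib 3.10.9.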

Additional observations from a re-analysis of the deposited data

Results flagged for a closer look

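In groups of 4 arrays, an array was marked when its gap to the nearest other array, as a share of the group's range, exceeded Dixon's 95% critical value. Among 90 groups of 15 members 6 arrays were marked, and chance marks about 1 in 20 groups. Kdelr2 was added to the 15 after its values were seen, so its marks come from a gene chosen with them known. Sec23b stood at 1587.4 on wild type 8 h array D, above the other 3 arrays at 1118 to 1169.5. Srp68 stood at 1547.6 on wild type 8 h array B, below the others, and at 1348.2 on CHOP-/- 4 h array B, above the others. Stx18 stood at 180.0 on untreated wild type array D, above the others at 141 to 142. Kdelr2 stood at 1746.9 on untreated wild type array D and at 899.5 on wild type 8 h array D, above the others in both groups. No difference between the genotypes' responses of a member was called.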

How the results depend on the processing

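No called member changed direction in any alternative run; the related genes were not run under the alternatives. At 8 h the count of called members was 15 to 27 in wild type and 10 to 19 in CHOP-/- cells over the alternatives that keep all replicates, and 14 to 18 in both when single arrays were left out. With all 24 arrays and the letter as a replicate block, 19 members were called at 8 h in each genotype, 3 at 4 h in wild type and 2 at 4 h in CHOP-/- cells, where no member was called without it. With the block over the compared arrays alone the counts were 27 for wild type at 8 h, 10 for CHOP-/- at 8 h and 2 for CHOP-/- at 8 h against 4 h; between the genotypes they were 0 untreated, 1 at 4 h and 2 at 8 h. For wild type at 4 h, 1 member was called with median centring and 1 with only the compared arrays. For 8 h against 4 h, only the compared arrays gave 2 in wild type and 6 in CHOP-/- cells, and the mean of probe sets gave 5 in wild type. Between genotypes the mean of probe sets gave 0 untreated, 1 at 4 h and 0 at 8 h. At 4 h the filter at the 60th percentile, which Trappc5 did not pass, and the compared arrays each gave 1. Array weights gave 2 at 8 h. Leaving out single arrays gave 1 to 3 for wild type at 4 h, 2 to 7 and 6 to 14 for 8 h against 4 h in wild type and CHOP-/- cells, and the unchanged 1, 2 and 1 between genotypes. The response difference stayed at 0 members in all alternatives run; no fit with the block over compared arrays was made for it. The causes of these shifts were not tested. Median centring moved the median of the members at 8 h from 0.137 to 0.18 in wild type and to 0.246 in CHOP-/- cells, while the median of all genes moved from -0.0154 to 0.0282 and from -0.0107 to 0.0641. Signals near the filter, as for Srprb, limit how exact a fold change is.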
